A study of Mus musculus with 4 samples.

Results

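Trem2, Apoe, Gpnmb, Spp1, Fabp5, Lpl, Mmp12, Cd36 and Atp6v0d2 are 9 genes used to recognise lipid-associated macrophages. They were taken by name from the 32285 genes of an RNA library of cells from mouse tumours, and no measured value was used to pick them. All 9 had a row and were detected, and all 9 passed the minimum level of 10 CPM (counts of RNA molecules of a gene per 1e6 counts) in each comparison with macrophages below. The question was in which cells of the tumour they were found and how often they were found in the same macrophage. A further question was how their level in T cells stood beside that of genes T cells do not use.

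Lipid-associated macrophages, also called foamy or Trem2 macrophages, take up lipoproteins, dying cells and other lipid-rich material and break it down in the lysosome. They have been described in atherosclerotic plaques, obese fat, demyelinated nerve tissue and tumours. In such cells, surface receptors bind lipids, extracellular lipases and apolipoproteins handle lipoproteins, cytosolic carriers hold fatty acids, and a proton pump acidifies the lysosome. Several of these genes are used by other cells too: Gpnmb by pigment cells, Cd36 by capillary endothelium, Lpl by fat cells and their stroma, and Spp1 by many activated cells.

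Wild-type B6 mice of the Thy1.2 type bore chimeric tumours and were given Thy1.1 Pmel-1 CD8 T cells together with an adjuvant. Pmel-1 is a T cell receptor transgene that recognises the melanocyte protein Pmel. In one group the transferred cells were Tc1 cells, the interferon-gamma type of CD8 T cell, and in the other they were Tc9 cells, the interleukin-9 type. Tumours of 3 mice per group were pooled at day 30 after inoculation, digested, enriched on Percoll and sorted for CD4 T cells, and 1 RNA and 1 T cell receptor (TCR) library was made per group with the 10x 5′ v2 chemistry. All values below are from the Tc1 group unless the Tc9 group is named. There are no replicates: the 3 mice cannot be told apart, no test between conditions was possible, and intervals (95%) cover counting error only. They treat molecules of the same cell as independent and are too narrow where few cells hold many of them.

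The Tc1 library held 13406 barcodes with 106053410 unique molecular identifiers (UMIs, counted RNA molecules), and 11933 of them passed a minimum of 500 genes and a limit of 10% on mitochondrial UMIs, with a median of 5404 UMIs. The label names CD4 T cells, yet T lineage clusters held only 42.2% of the kept barcodes. The 5038 T lineage cells had a median of 4146 UMIs. Macrophage-like cells made up 17.0% (2028 cells, median 4570 UMIs), monocyte-like cells 10.6% (1262), melanoma-like cells 3.19% (381) and dendritic-like cells 1.99% (237). Fibroblast-like (69), endothelial-like (57), plasmacytoid dendritic-like (69) and neutrophil-like cells (94) were rare. A further 1187 barcodes carried T cell and macrophage RNA together, and 1178 lay in a pair of clusters whose markers gave no name. The 9 genes were left out of the clustering. The library shared 127 barcode sequences with the Tc9 library, 1.06% of its kept barcodes.

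The genes lie on 8 chromosomes of the mouse genome (GRCm38.p6): Trem2 at chr17:48346401-48352276, Cd36 at chr5:17781690-17888959, Apoe at chr7:19696244-19701310, Lpl at chr8:68880555-68906932, Fabp5 at chr3:10012585-10016610, Gpnmb at chr6:49036518-49058182, Atp6v0d2 at chr4:19876838-19922566, Spp1 at chr5:104435111-104441053 and Mmp12 at chr9:7344397-7360461. RefSeq promoters, from 250 bases before to 50 bases after a start, were held for 6 of them in 10 entries, and none was held for Fabp5, Lpl or Atp6v0d2. The 3 shown here are those with TGANTCA, a loose pattern searched for AP-1, the dimer of Fos and Jun family proteins. It allows any base at its centre, which is A in Trem2, C in Gpnmb and G in Mmp12. Capitals mark TGANTCA (AP-1), at 9 bases before the start of Trem2, 8 bases after that of Gpnmb and 44 bases before that of Mmp12, and CACATG, the reverse complement of CATGTG (the core of the M-box of pigment cell genes), 83 bases before the Mmp12 start. All 3 are given 5′ to 3′ on the plus strand, from chr17:48346151-48346450 (Trem2), chr6:49036268-49036567 (Gpnmb) and chr9:7347124-7347423 (Mmp12, the second of 2 starts; the other holds no TGANTCA).
Trem2: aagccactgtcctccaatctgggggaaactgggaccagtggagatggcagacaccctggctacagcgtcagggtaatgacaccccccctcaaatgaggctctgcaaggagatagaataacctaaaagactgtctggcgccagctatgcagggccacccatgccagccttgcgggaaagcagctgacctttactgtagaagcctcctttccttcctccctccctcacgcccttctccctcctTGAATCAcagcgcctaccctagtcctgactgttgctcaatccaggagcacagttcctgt
Gpnmb: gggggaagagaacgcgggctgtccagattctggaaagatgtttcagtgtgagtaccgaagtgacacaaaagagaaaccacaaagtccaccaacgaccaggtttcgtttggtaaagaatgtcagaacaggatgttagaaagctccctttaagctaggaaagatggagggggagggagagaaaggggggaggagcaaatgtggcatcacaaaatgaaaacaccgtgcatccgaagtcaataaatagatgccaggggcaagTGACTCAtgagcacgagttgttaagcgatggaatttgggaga
Mmp12: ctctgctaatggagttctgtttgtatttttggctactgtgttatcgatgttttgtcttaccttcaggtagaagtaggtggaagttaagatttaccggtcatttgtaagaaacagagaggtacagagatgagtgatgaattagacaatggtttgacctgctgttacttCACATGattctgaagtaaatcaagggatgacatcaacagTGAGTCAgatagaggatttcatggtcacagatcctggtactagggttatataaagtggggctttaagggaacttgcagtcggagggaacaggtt
Both strands were searched, and the marked matches did not overlap each other. TGANTCA was found in 3 of the 6 genes and in 7.79% of 32544 promoter windows of the same length. CATGTG was found in 1 gene and in 14.2% of windows. CACGTG, the E-box read by Mitf, Tfeb and Tfe3, was found in 0 of the 6 genes and in 7.17% of windows, and GAGGAA, a purine-rich core of ETS factors such as PU.1, in 4 genes and in 28.1%. Genes with several entries have more windows to hold a match, and a match describes letters only.

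Cell types differed for each gene, and the macrophage-like cells held the highest level of Trem2, Apoe, Fabp5 and Lpl among the 13 classes of cells. Trem2 is a surface receptor for lipids and apolipoproteins. It stood at 387 CPM (376 to 398) in macrophages, 180 in the unnamed clusters, 113 in the mixed barcodes, 90.0 in monocytes, 53.6 in plasmacytoid dendritic cells, 42.0 in neutrophils, 30.6 in B cells, 27.1 in NK cells, 21.9 in dendritic cells, 18.5 in fibroblasts, 14.5 in endothelial cells, 14.0 in T cells and 5.25 in melanoma cells. Below the monocytes most neighbours in this order lay within each other's counting intervals. Of all Trem2 UMIs in kept barcodes, 50.9% lay in macrophages. Cd36, a scavenger receptor that takes up oxidised lipoproteins and long-chain fatty acids, had another order. It was highest in endothelial cells at 505 CPM (461 to 551), then 266 in the unnamed clusters, 178 (171 to 186) in macrophages, 147 in monocytes and 91.7 in the mixed barcodes, and at most 44.6 in every other class. Melanoma cells were lowest at 3.04. Macrophages held 27.3% of its UMIs and monocytes 20.0%.

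Apoe, the apolipoprotein that macrophages secrete for cholesterol efflux, reached 6512 CPM in macrophages. It was at 1628 in the mixed barcodes, 1540 in the unnamed clusters, 1388 in melanoma cells, 1151 in monocytes, 934 in plasmacytoid dendritic cells and 172 to 605 in the remaining classes, with T cells at 203. Lpl, the lipase that releases fatty acids from triglyceride-rich lipoproteins, stood at 175 CPM in macrophages. Fibroblasts followed at 115 (97.2 to 136), or 77.1 without the 1 cell with most Lpl UMIs, beside the unnamed clusters at 113, then the mixed barcodes at 62.0 and monocytes at 36.5, while T cells were at 6.09 and melanoma cells at 2.91. Fabp5, a cytosolic fatty acid carrier, was at 1857 CPM in macrophages, 1346 in the unnamed clusters, 1041 in dendritic cells, 1033 in endothelial cells, 789 in melanoma cells, 621 in neutrophils, 612 in the mixed barcodes, 541 in fibroblasts, 476 in monocytes and 156 in T cells. The dendritic and endothelial levels lay within each other's intervals. Of the 237 Fabp5 UMIs of neutrophils 103 lay in 1 cell, and the level without it was 366 CPM (306 to 433), under that of monocytes. Fibroblasts stood at 459 (421 to 499) without the 1 cell with most Fabp5 UMIs. Dendritic Fabp5 was uneven: in a finer clustering a cluster of 71 cells led by Ccl22, Fscn1 and Ccr7 held 2801 CPM and a cluster of 281 cells led by Cd209a and Mgl2 held 276. A Cd3 UMI was found in 57.8% of the dendritic-like cells, so T cell RNA was present in that class, and its part in these levels was not tested.

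Gpnmb and Atp6v0d2 belong to the lysosome. Gpnmb, a membrane glycoprotein of lysosomes and melanosomes, was highest in melanoma cells at 2158 CPM, which held 76.6% of its UMIs. It was at 425 in the unnamed clusters, 306 (297 to 316) in macrophages, 152 in neutrophils and 99.5 in the mixed barcodes. It stood between 28.3 and 69.3 CPM in the monocyte, dendritic, plasmacytoid, fibroblast, NK, B and T classes, and at 3.10 in endothelial cells. Macrophages held 8.96% of its UMIs, so most Gpnmb RNA of this library lay in pigment cells. Atp6v0d2 is a subunit of the vacuolar proton pump that is known from osteoclasts and macrophages. It was at 72.8 CPM (68.2 to 77.6) in macrophages and at 78.7 (53.1 to 112) on 30 UMIs in neutrophils, of which 23 lay in 1 cell. Without that cell, an alternative added after seeing the data, neutrophils stood at 18.6 CPM (7.49 to 38.4). The unnamed clusters followed at 23.1 and the mixed barcodes at 17.4, and no other class passed 9.15.

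Spp1 and Mmp12 are secreted proteins. Spp1, or osteopontin, a ligand of integrins and of Cd44, was led by cells other than the macrophages. It was at 1951 CPM in the unnamed clusters and 1914 in neutrophils, which lay within counting error of each other, at 1349 in monocytes, 1079 in fibroblasts, 635 in the mixed barcodes, 624 (611 to 638) in macrophages, and 252 or less elsewhere, with T cells at 73.8. Without the 1 cell with most Spp1 UMIs, neutrophils stood at 1279 and fibroblasts at 860 CPM. Monocytes held 27.9% of its UMIs and macrophages 14.5%. Mmp12, the macrophage elastase, was at 493 CPM in the unnamed clusters, 396 (385 to 407) in macrophages, 119 in the mixed barcodes, 90.2 in plasmacytoid dendritic cells and 42.2 or less in every other class, with melanoma cells lowest at 2.21. Of the 69 Mmp12 UMIs of plasmacytoid dendritic cells 39 lay in 1 cell, and the level without it was 39.8 CPM (26.9 to 56.8).

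**Figure D1:**
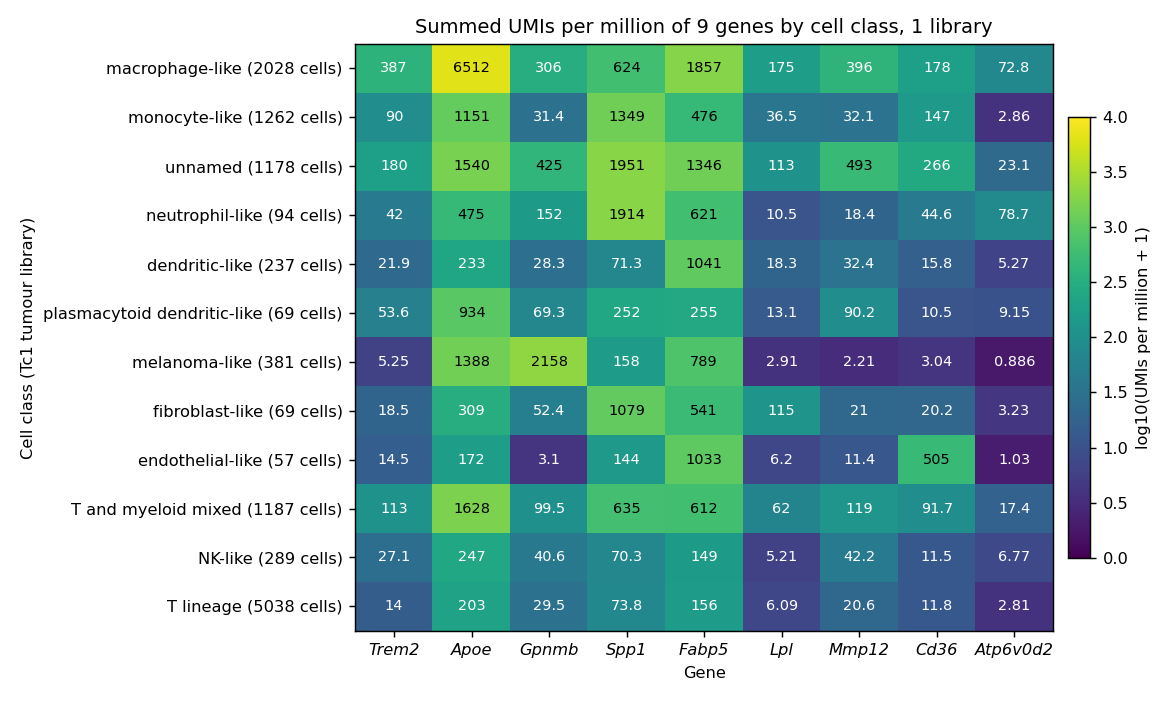
Level of each gene in CPM (log colour scale, values printed in the cells) for the cell classes of the Tc1 library, with genes in columns and classes in rows. Macrophages lead Trem2, Apoe, Lpl and Fabp5, melanoma cells lead Gpnmb (2158) and endothelial cells lead Cd36 (505).

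Because cells differ in depth, each was also thinned to 2000 UMIs, which left 1631 macrophages (397 shallower ones left out) and 4562 T cells (476 left out). In thinned macrophages Apoe was found in 89.8% of cells, Fabp5 in 53.4%, Trem2 in 49.6%, Spp1 in 27.2%, Gpnmb in 24.0%, Cd36 in 21.9%, Lpl in 19.7%, Mmp12 in 18.9% and Atp6v0d2 in 11.2%. In T cells, which serve as the background, the same shares were 16.5%, 14.4%, 2.24%, 3.90%, 4.16%, 1.29%, 0.833%, 2.06% and 0.526%. Without thinning, at medians of 4570 and 4146 UMIs, Trem2 was found in 66.6% of macrophages and 5.20% of T cells, and Atp6v0d2 in 16.5% and 1.43%. Each gene was thus found in a larger share of macrophages than of T cells at equal depth. Monocytes stood at 53.5% for Apoe, 36.3% for Spp1, 16.6% for Trem2 and 16.2% for Cd36, and no higher than T cells for Atp6v0d2 (0.328%). Melanoma cells stood at 80.9% for Gpnmb and 57.8% for Fabp5, and endothelial cells at 53.1% for Cd36.

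Ratios of CPM put these orders in numbers, with a ratio of 1.5-fold or more counted as higher or lower. Macrophages were higher than T cells for 9 of the 9 genes, where 20.1% of all genes tested were higher, and the log2 ratios ran from 3.08 for Spp1 to 5.01 for Apoe with a median of 4.27. The median of all genes was -0.36. Against monocytes 7 genes were higher (16.5% of all genes), with the largest log2 ratios for Atp6v0d2 at 4.67 (4.17 to 5.22), Mmp12 at 3.62 and Gpnmb at 3.28. Cd36 lay within 1.5-fold at 0.27 (0.18 to 0.36), and Spp1 was 2.16-fold lower in macrophages, at -1.11 (-1.15 to -1.07), where 15.5% of all genes were lower. The median over the 9 genes was 2.27 and over all genes 0.02. Thus 7 genes separated macrophages from monocytes in this library, while Spp1 ran the other way. With barcodes limited to 5% mitochondrial UMIs, a setting that counted the cluster led by Inhba and Mmp13 as macrophages, Spp1 turned to 0.49.

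Against dendritic-like and plasmacytoid dendritic-like cells together, 9 of 9 genes were higher in macrophages (14.0% of all genes), from a log2 ratio of 1.04 for Fabp5 to 4.19 for Apoe. The same held for each of these 2 classes alone (15.7% and 18.8% of all genes were higher). Against melanoma cells 8 of 9 were higher (23.6%), with Mmp12 at 7.48, Apoe at 2.23 and Fabp5 at 1.23. Gpnmb was 7.05-fold lower in macrophages than in melanoma cells, at -2.82 (-2.86 to -2.77), where 47.0% of all genes were lower. Against fibroblasts and endothelial cells together 7 of 9 were higher (17.3%) and 0 lower (38.0%), and Spp1 (-0.10) and Cd36 (-0.38) lay within 1.5-fold. Taken apart, fibroblasts exceeded macrophages for Spp1 (-0.79, or -0.46 and within 1.5-fold without 1 cell; 34.3% of all genes were lower in macrophages), and macrophage Lpl was only 1.52-fold above fibroblast Lpl at 0.61 (0.36 to 0.86), or at 1.19 without 1 cell, with 8 of 9 genes higher (21.7%). Endothelial cells exceeded macrophages 2.83-fold for Cd36, at -1.50 (-1.64 to -1.36), where 41.8% of all genes were lower in macrophages, and the other 8 genes were higher in macrophages (18.9%). Against neutrophils 7 genes were higher (40.1% of all genes), Spp1 was 3.07-fold lower (23.8%) and Atp6v0d2 lay at -0.11 (-0.64 to 0.46). Without the 1 neutrophil with most UMIs of the gene, Atp6v0d2 was higher in macrophages at 1.97 and Spp1 stayed lower at -1.03. The genes that were not higher in macrophages thus were Spp1 and Cd36 against monocytes, Gpnmb against melanoma cells and Cd36 against endothelium. Spp1 was not higher against neutrophils and fibroblasts, nor Atp6v0d2 against neutrophils with all cells counted. Several of these orders rested on macrophage cluster 2, described next: with macrophages limited to cluster 4, chosen after seeing the data, Mmp12 stood at -0.055 over monocytes and -0.46 over dendritic cells, and Fabp5 at -0.66 over dendritic cells, -0.47 over melanoma cells and -0.41 over stromal cells.

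The same values show which other cells held a gene above the T cell level. Melanoma cells exceeded T cells for 4 genes (36.0% of all genes): Gpnmb at a log2 ratio of 6.19, Apoe at 2.78, Fabp5 at 2.34 and Spp1 at 1.10, while Mmp12 (-3.22), Cd36 (-1.96) and Trem2 (-1.41) were lower in melanoma cells (29.1%). Lpl and Atp6v0d2 were under 10 CPM in both sets and stay out of this count. Fibroblasts exceeded T cells for 6 genes (28.4%), led by Lpl at 4.24 and Spp1 at 3.87. Of the 6, Apoe stood at 309 CPM with and 165 without 1 cell, against 203 in T cells. Gpnmb stood at 52.4 and 37.1 against 29.5, and Cd36 at 20.2 and 11.6 against 11.8. Without that cell Apoe, Gpnmb and Cd36 were thus not 1.5-fold higher, while Lpl, Spp1 and Fabp5 stayed higher. Endothelial cells exceeded T cells for 3 genes (31.6%), led by Cd36 at 5.42 and Fabp5 at 2.72. The other was Spp1, at 144 CPM with and 97.3 without 1 cell against 73.8 in T cells, the latter within 1.5-fold. Endothelial cells were lower for 2 (26.4%), Gpnmb and Mmp12, of the 7 genes that passed the minimum.

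The macrophage-like class was made of 2 clusters that differed strongly in these genes. Cluster 2 (1049 cells, median 2589 UMIs) was led by Ccl8, Igf1, Mmp12, Atp6v0d2, Wfdc17, Fabp5, Pmp22, Trem2, Folr2 and Npl, and cluster 4 (979 cells, median 8880 UMIs) by Cbr2, the C1q genes, Ifit3 and Cxcl10. Of the 9 genes, 8 were higher in cluster 2, where 7.69% of all genes were higher and 56.7% lower, with an all-gene median log2 ratio of -0.79. Mmp12 stood at 1312 against 30.9 CPM, a log2 ratio of 5.41 (5.23 to 5.58). Atp6v0d2 stood at 231 against 9.77 CPM (4.56), Gpnmb at 871 against 81.0 (3.43) and Fabp5 at 5085 against 570 (3.16). Spp1 followed at 1.71, Trem2 at 1.19 (646 against 283 CPM), Cd36 at 1.16 and Lpl at 0.69. Apoe did not separate the clusters, with 6733 against 6424 CPM (0.07). Mmp12, Atp6v0d2, Gpnmb and Fabp5 were thus 8.92 to 42.4-fold higher in cluster 2, and the other 5 genes 1.05 to 3.28-fold. The clusters were defined by other genes of the same cells, so this is a description and not a test.

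At 2000 UMIs per cell the share with Mmp12 was 40.4% (36.7 to 44.2) in cluster 2 and 3.09% (2.08 to 4.41) in cluster 4, near the 2.06% of T cells. Atp6v0d2 was found in 25.0% (21.8 to 28.4) and 1.07% (0.512 to 1.95), and Gpnmb in 46.8% (43.0 to 50.5) and 7.14% (5.58 to 8.98). Thinning left out 356 shallow cells of cluster 2 and 41 of cluster 4. The unnamed cluster 7 (617 cells, led by Inhba, Mmp13, Hspa1a and Hspb1, with Nos2 among its leading genes) resembled cluster 2 in some genes. It held Gpnmb in 41.5% of cells, Mmp12 in 29.9% and Spp1 in 56.7%, but Atp6v0d2 in only 4.23%. Against cluster 4 it was higher for 6 genes (12.4% of all genes) and lower for Apoe (-1.86; 27.5% of all genes). Against cluster 2 it was higher for Spp1 (1.06; 49.6% of all genes) and lower for 7 genes (15.5%). Its heat shock genes stand among its leading genes, and their part in these levels was not tested.

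Monocytes were uneven as well. Cluster 6 (720 cells) held Spp1 at 1968 CPM and Cd36 at 200, and cluster 10 (398 cells) held 339 and 47.4, log2 ratios of 2.54 and 2.08. Of the 8 genes that passed the minimum 4 were higher in cluster 6 (13.2% of all genes) and Lpl was lower, at 16.8 against 64.5 CPM (-1.94; 24.0% of all genes were lower). Cluster 19, the remaining monocyte cluster (144 cells), held Apoe at 4248 CPM, Lpl at 98.4 and Fabp5 at 94.4. In clusters 6 and 10 Apoe stood at 883 and 1247 CPM and Fabp5 at 568 and 356. The macrophage markers summed to 7053 CPM in cluster 19, 5247 in cluster 6 and 3214 in cluster 10. Among the mixed barcodes, cluster 14 (266) was led by Ccl8, Igf1, Atp6v0d2 and Mmp12, and its levels of the 9 genes were 0.406 to 0.497 of those in cluster 2. The macrophage genes C1qa, C1qb, C1qc, Lyz2, Ms4a7, Csf1r and Pf4 stood at 0.410 to 0.493 of cluster 2 there, and Cd3e at 26.0-fold. By the 1.5-fold count 9 of the 9 genes were lower there (13.1% of all genes) and 0 higher (47.3%).

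The melanoma clusters differed in several of the genes. Cluster 16, at a median of 2054 UMIs, held Trem2 at 30.1 CPM, Mmp12 at 26.1 and Lpl at 17.0, and cluster 18, at 83518 UMIs, held 3.58, 0.608 and 1.96, while Gpnmb stood at 882 and 2244 CPM. Of the 8 genes that passed the minimum 5 were higher in cluster 16 (9.62% of all genes) and Gpnmb was lower (35.6%). Cluster 18 held Apoe at 1399 CPM, Fabp5 at 765 and Spp1 at 161.

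**Figure D2:**
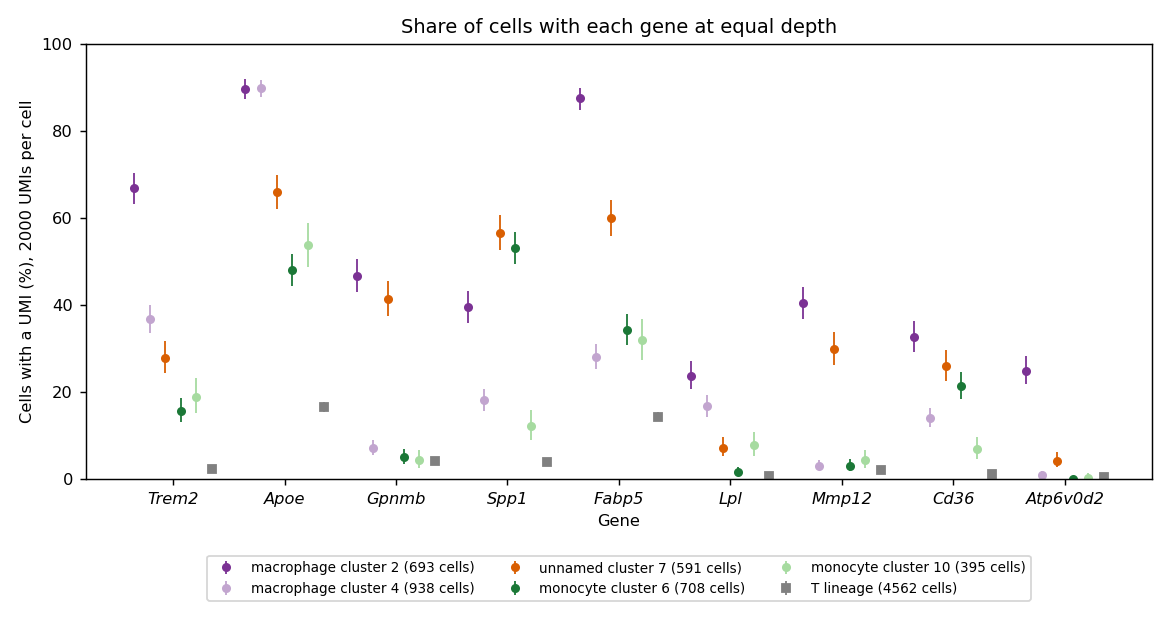
Percent of cells with at least 1 UMI of each gene after thinning to 2000 UMIs, with exact intervals (95%, counting error only), for macrophage clusters 2 and 4, unnamed cluster 7, monocyte clusters 6 and 10 and the T lineage. Cluster 2 stands far above cluster 4 for Gpnmb, Fabp5, Mmp12 and Atp6v0d2 and level with it for Apoe (89.8% and 89.9%).

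Co-detection was counted in the 1631 thinned macrophages. Of the 36 pairs of genes, 35 were found together in more cells than the product of their shares gives, and the odds ratios ran from 0.914 to 27.2 with a median of 2.74. Part of this was the split into 2 clusters: combined within clusters (Mantel-Haenszel) the median was 1.96 and the range 0.908 to 8.24, with 35 pairs again above 1. The highest odds ratios were those among the 4 genes with the largest ratios between the clusters. Fabp5 and Atp6v0d2 shared 176 cells against 97.7 from their shares (odds ratio 27.2, within clusters 8.24). Mmp12 and Atp6v0d2 shared 121 against 34.7 (13.1 and 4.89), Gpnmb and Fabp5 353 against 209 (12.9 and 5.32), and Gpnmb and Mmp12 192 against 74.1 (9.26 and 4.03). For Fabp5 and Mmp12 the odds ratio was 14.2 (4.21 within clusters). Trem2 and Apoe, a receptor and one of its ligands, had an odds ratio of 4.54, and it was larger within clusters at 5.33. Apoe and Atp6v0d2 were the pair below 1, at 0.914, with 163 shared cells against 164.4.

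The general macrophage markers were also found together often, which sets the scale for these pairs. Among 10 macrophage marker genes 33 of 45 pairs had an odds ratio above 1, with a median of 1.45. C1qa, C1qb, C1qc, Cd68, Ms4a7 and Pf4 were each found with 9 of the 9 genes more often than their shares give. In contrast Csf1r exceeded 1 with only 1 of the 9, and Adgre1 and Mrc1 with 2. The median odds ratio with the 9 genes was 2.28 for C1qb and 2.24 for Cd68, but 0.433 for Csf1r and 0.649 for Adgre1. Within cluster 2 alone 35 pairs lay above 1 (median 2.25) and within cluster 4 alone 34 (median 1.89), where Apoe with Gpnmb (0.963) and with Mmp12 (0.976) lay below.

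**Figure D3:**
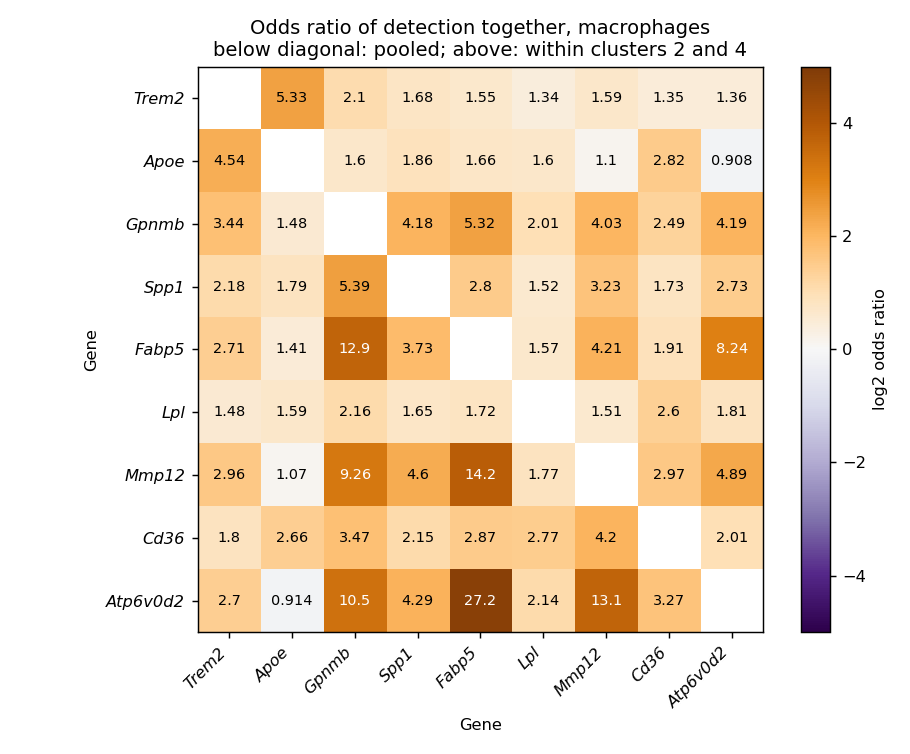
Odds ratio of finding both genes of a pair in the same macrophage (colour: log2 of the odds ratio, printed in the cells; 1631 cells at 2000 UMIs), over all macrophages below the diagonal and combined within clusters 2 and 4 above it. Pairs of Fabp5, Gpnmb, Mmp12 and Atp6v0d2 are the highest (27.2 for Fabp5 with Atp6v0d2) and lie above 1 within clusters too.

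Counting genes per cell, 393 of 1631 macrophages (24.1%, 22.0 to 26.2) held 5 or more of the 9. In cluster 2 the share was 50.1% (46.3 to 53.9) with a median of 5 genes per cell, and in cluster 4 it was 4.90% (3.61 to 6.49) with a median of 2. It was 19.6% (16.5 to 23.1) in unnamed cluster 7 and 28.1% (22.7 to 34.0) in mixed cluster 14. Monocytes reached 1.88%, dendritic-like cells 0.435% and T cells 0.329% (15 of 4562 cells). In melanoma cluster 16 (200 cells, median 2054 UMIs) thinning left out 98 shallow cells. There the share was 5.88% (2.19 to 12.4), or 6 of 102 thinned cells. In melanoma cluster 18 (181 cells, median 83518 UMIs) it was 0 of 180, which allows a share of up to 1.67% by a limit of 3 counts. Of all 656 cells with 5 or more genes, 59.9% were macrophages, 17.7% lay in cluster 7 and 11.1% in cluster 14. Only 13 macrophages held all 9, 11 of them in cluster 2. Holding many of these genes at once was therefore found mostly in macrophage cluster 2, unnamed cluster 7 and mixed cluster 14. Singly, Gpnmb, Spp1, Cd36 and Fabp5 were each high in other cells.

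**Figure D4:**
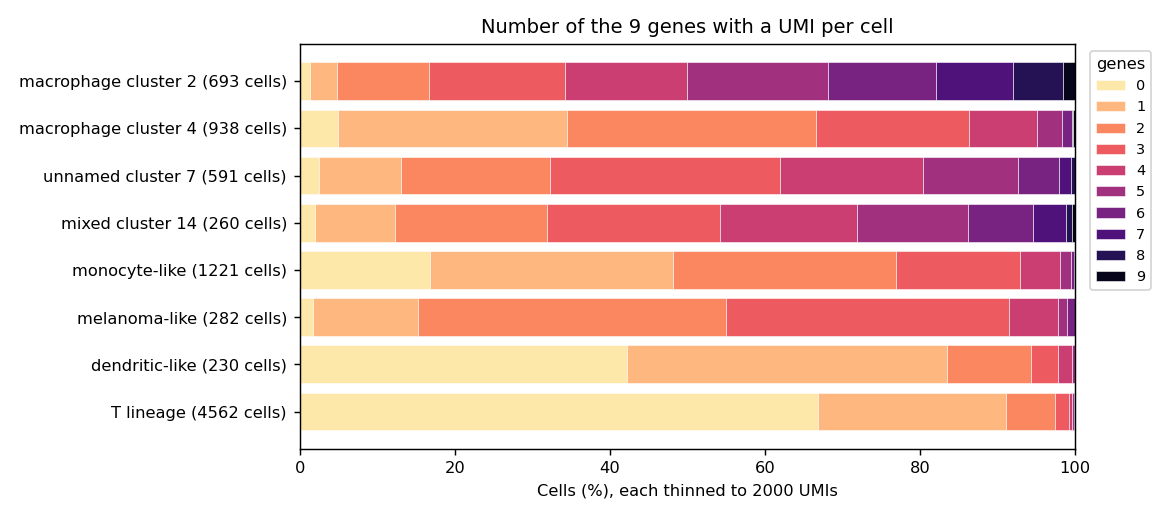
Stacked bars give the percent of cells (at 2000 UMIs) by the number of the 9 genes found in the cell, from 0 to 9, for macrophage clusters 2 and 4, unnamed cluster 7, mixed cluster 14 and 4 other classes. The median cell holds 5 genes in cluster 2 and 2 in cluster 4, while most T cells hold 0.

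The 393 macrophages with 5 or more of the genes were then set against the 741 with 2 or fewer, to describe what else differs between them. The 9 genes themselves chose these cells and are not part of the comparison. Of 7927 genes tested, 722 were higher (9.11%) and 4186 lower (52.8%), with an all-gene median log2 ratio of -0.67. The cells with many members had fewer genes at equal depth, a median of 777 against 1034. The ferritin heavy chain Fth1 took 68531 against 13234 CPM. After centring on the all-gene median the split was 2301 higher and 2455 lower, and with TMM scaling 1856 and 2761. Intervals excluded 0 for 497 of the higher and 3078 of the lower genes. Cluster membership went along with the comparison, since 88.3% of the high cells but 15.7% of the low cells lay in cluster 2. Further values moved with it: a TCR contig was found in 2.04% against 6.34%, a Cd3 UMI in 10.2% against 11.9%, a melanoma marker UMI in 18.3% against 14.6%, and median mitochondrial shares were 0.486% and 1.11%. Their part in the result was not tested.

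Of 17 other genes known from lipid-associated macrophages, 15 were higher and 0 lower in the cells with many members, with a median log2 ratio of 2.11, or 2.78 above the all-gene median. The cathepsin Ctsk had the largest ratio at 4.72, on only 2 UMIs in the low cells (interval 2.73 to 7.84). The fatty acid carrier Fabp4 was at 477 against 22.3 CPM (4.42, 3.91 to 4.98), the tetraspanins Cd9 and Cd63 at 2.88 and 2.47, and the heme oxygenase Hmox1 at 2.26. Most of the list was higher within each cluster too: 15 of 17 were higher within cluster 2 (median 1.13, all-gene median -0.29; 16.2% of all genes were higher) and 15 of 16 within cluster 4 (1.35, all-gene median 0.30; 38.9%). The list was drawn up with earlier results of these data known.

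Genes of the lysosome and its pump followed. Of 23 lysosomal genes, Cd63 again among them, 11 were higher and 1 lower (median 0.50; 21 higher and 0 lower after centring), with the cathepsins Ctsl at 1.98 and Ctsd at 1.86. Of 16 other subunits and partners of the proton pump that Atp6v0d2 belongs to, 9 were higher and 1 lower (median 0.69), among them Atp6v1c1 at 1.32 and Atp6v0c at 1.07, and Tcirg1 at -0.86 was the one lower. Within cluster 2 the pump had 7 of 16 higher (median 0.51), and within cluster 4 only 4 of 16 (0.42, all-gene median 0.30), a smaller share than the 38.9% of all genes. Within cluster 2, 18 of the 23 lysosomal genes were higher (median 0.93), and within cluster 4 15 (0.78). Hypoxia and glycolysis genes were higher for 9 of 11 (median 1.14), with Bnip3 at 2.06, Ldha at 1.65 and Pgk1 at 1.53, and 11 of 11 were higher within cluster 4 and 6 within cluster 2. Matrix genes were split, with 4 of 8 higher and 3 lower: the collagenase Mmp13 at 3.41, and fibronectin Fn1 at -2.56.

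Genes around the 9 in their own pathways gave no uniform picture, and their shares lower lay near the 52.8% of all genes for 3 of 4 lists. Of 7 genes of Trem2 signalling tested 0 were higher and 4 lower (median -1.41; 2 and 4 after centring): the phospholipase Plcg2 at -2.96, the phosphatase Inpp5d at -2.20, the kinase Syk at -1.68 and Ms4a4a at -1.41. Within cluster 2 the counts were 1 and 3 with a median of -0.21, near the all-gene median of -0.29, and within cluster 4 also 1 and 3 (-0.46). Clec7a, the eighth on that list, was not analysed here. Of 16 genes of lipid uptake, storage and export 2 were higher and 8 lower (median -0.57; 7 and 4 after centring), with the lipid droplet protein Hilpda at 2.04 and the lipoprotein receptor Lrp1 at -1.44. Within cluster 2 the balance turned, with 5 higher and 1 lower of 14, where 16.2% of all genes were higher and 33.5% lower. Within cluster 4 the counts were 8 and 4 of 18, where 38.9% of all genes were higher and 17.5% lower. The list median there was 0.29, near the all-gene median of 0.30, and after centring 5 were higher and 7 lower. Of 12 transcription factors of lipid and lysosome genes 2 were higher and 6 lower (3 and 2 after centring), with Bhlhe41 at 2.85 and Mitf at -1.35, and 3 and 1 in cluster 2 and 5 and 2 in cluster 4. Partners and receptors of the secreted proteins were lower for 8 of 10, among them the osteopontin receptors Itga9 (-3.05), Itga4 (-2.32) and Cd44 (-2.07). That too was not seen within clusters, with 1 higher and 2 lower of 8 in cluster 2 and 3 and 2 of 11 in cluster 4. A lower CPM is not a lower level per cell, since only shares of RNA were compared.

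Antigen presentation, interferon and monocyte genes were lower in the cells with many members. All 5 class II genes were lower (median -2.73), with H2-Ab1 at -2.73, Cd74 at -2.70 and the activator Ciita at -4.13 on 3 UMIs in the high cells (-6.43 to -2.54). They were lower within cluster 2 (4 of 4, median -1.12) and within cluster 4 (5 of 5, -1.84) too. All 10 interferon genes were lower (median -1.83, 7 after centring), with Cxcl10 at -3.10 and Isg15 at -1.84, and 6 were lower within cluster 2 and 9 within cluster 4. Monocyte markers were lower for 9 of 10 (median -3.45), with Ccr2 at -4.68 and Ly6c2 at -4.35, and their summed level was 448 against 5119 CPM. Of 10 macrophage markers 2 were higher and 4 lower, with Cd68 at 1.62 and Csf1r at -1.79. After centring 6 were higher and 3 lower, and within cluster 4 5 were higher and 1 lower.

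Genes that respond to tissue dissociation ran one way over all macrophages and the other within cluster 2. All 7 were lower in the cells with many members (median -2.48), with Dusp1 at -3.34 and Fos at -3.31, but 4 of 7 were higher within cluster 2 (median 0.64) and 4 of 7 lower within cluster 4 (-0.79). Cell cycle genes were higher for 1 of 7 and lower for 2 (median 0.12), and after centring 4 were higher and 0 lower. They were lower for 6 of 7 within cluster 2 (median -1.58) and higher for 5 of 7 within cluster 4 (0.80). Resident-like macrophage genes were higher for 2 of 7 and lower for 2, and after centring 3 were higher and 0 lower. Markers of other cell types differed between the sets for some lists. The general dendritic list, mostly class II genes, summed to 3774 CPM in the cells with many members and 24717 in those with few, and the plasmacytoid list to 560 against 941. The melanoma list summed to 224 against 257 CPM, the T cell list to 112 against 168, the fibroblast list to 24.2 against 14.8, and mast cell or basophil markers were at 0 in both. The red cell list, 4 of 4 tested genes lower, summed to 975 against 2653 CPM. The part of these cells' RNA in the result was not tested.

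By the rule for named genes, the genes furthest apart on the high side after the members and with at least 50 CPM were Fabp4, the creatine transporter Slc6a8 (3.97), Gadd45a (3.91), the aminopeptidase Anpep (3.85), Syngr1 (3.75), Mmp13, Gde1 (3.23), Pmp22 (3.22), Mgst1 (3.19) and the growth factor Igf1 (3.11). On the low side they were led by Sirpb1a at -5.50 on 2 UMIs in the high cells (-8.56 to -3.63), Spon1 at -4.95 (-6.84 to -3.57), Ccr2, and Ifit1bl1 at -4.59 on 2 UMIs (-7.66 to -2.70). Gm9733 was at 0 in the high cells against 109 CPM in the low cells, at least 28.5-fold lower against a floor of 3 counts over the set.

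Across the 24 clusters with at least 50 cells, the genes whose level ran most like each of the 9 were found among 7589 genes by Pearson correlation of log2(CPM + 10). Trem2 was most like C1qb (0.96), C1qc (0.96) and C1qa (0.95), the chains of complement C1q that macrophages make. Lpl was most like the same 3 genes (0.86 to 0.88), and Apoe was most like the lysosomal enzymes Hexa (0.90) and Ctsb (0.89). Gpnmb was most like Syngr1 (0.94) and Uap1l1 (0.89), Mmp12 like Mmp13 (0.87), Ncoa4 (0.76) and Igf1 (0.75), and Atp6v0d2 like Npl (0.88), Ccl8 (0.83) and Ptgr1 (0.83). Spp1 was most like Hmox1 (0.91), Ccl2 (0.90) and Clec4d (0.90), and Fabp5 like Prdx1 (0.88). Cd36 was most like Stab1 (0.95), Plk2 (0.92) and Cd93 (0.90). Among the 9 themselves Trem2 with Lpl (0.86) and Trem2 with Apoe (0.84) were the closest pairs, and Gpnmb with Cd36 (0.11) the most distant. All clusters come from the same library and differ in depth, so these values describe this library.

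UMIs of these genes were also found in T cells, and their level there was set beside that of genes T cells do not use. Such a level can come from free RNA and from doublets, which were not told apart. The measure is the CPM in T cells as a percent of the CPM in the 5419 cells outside the T lineage, NK and mixed clusters. In the 5038 T lineage cells it was 9.30% (Lyz2) to 12.9% (Ms4a7) for 7 macrophage reference genes, 1.61% to 2.75% for 4 melanoma genes and 1.17% to 2.36% for 3 fibroblast genes. Of the 9 genes 8 were at or under the highest reference: Gpnmb at 3.89%, Apoe 8.34%, Lpl 8.73%, Spp1 9.27%, Cd36 9.69%, Trem2 10.0%, Mmp12 11.9% and Atp6v0d2 12.6% (10.1 to 15.6). Fabp5 alone was above it at 14.8% (14.4 to 15.2), where 90.5% of 8513 genes were above. Gpnmb, most of whose UMIs lay in melanoma cells, stood between the melanoma and the macrophage references. Mmp12 and Atp6v0d2 were uneven over the T lineage clusters. Cluster 12 (328 cells) held them at 114 and 9.86 CPM, against 174 and 22.3 in the cells outside. No other T lineage cluster passed 29.6 CPM for Mmp12 or 3.85 for Atp6v0d2.

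T cells defined instead by paired alpha and beta TCR contigs (3281 barcodes) included barcodes of the mixed clusters, and the macrophage references then stood at 32.7% to 40.9%. The 9 genes ran from 22.5% for Gpnmb to 37.6% for Spp1, and 0 of 9 were above the highest reference (88.1% of all genes were). With contigs and a T lineage cluster both required (2399 cells), 2 of 9 were above (90.4% of all genes), Fabp5 at 13.7% (13.2 to 14.2) and Atp6v0d2 at 11.5% (8.34 to 15.5), beside Ms4a7 at 11.4% (10.2 to 12.6). Thus Fabp5 was above the references in both sets limited to T lineage clusters and the Atp6v0d2 interval overlapped them. The naming of T lineage clusters held their macrophage markers at or under 1000 CPM. Those markers include all the macrophage references but Lyz2, and none of the 9 genes. The rule thus limited these references and not the 9 genes, and its part in the position of Fabp5 was not tested.

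In the Tc9 library, where macrophages were few, 2114 T cells with paired contigs held Fabp5 at 43.8 CPM, in 19.2% of cells. Trem2 was at 0.339 CPM, Cd36 at 2.04 and Apoe at 9.64 there, beside C1qa at 1.63 and Pf4 at 0.339. Spp1 stood at 30.5 CPM, with 449 UMIs held by 1.18% of cells. Fabp5 is known in T cells as a fatty acid carrier, and Spp1 as a cytokine they can make. No comparison of the treatments is drawn from these levels, since each group is 1 library and the libraries differ in their content of myeloid cells.

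**Figure D5:**
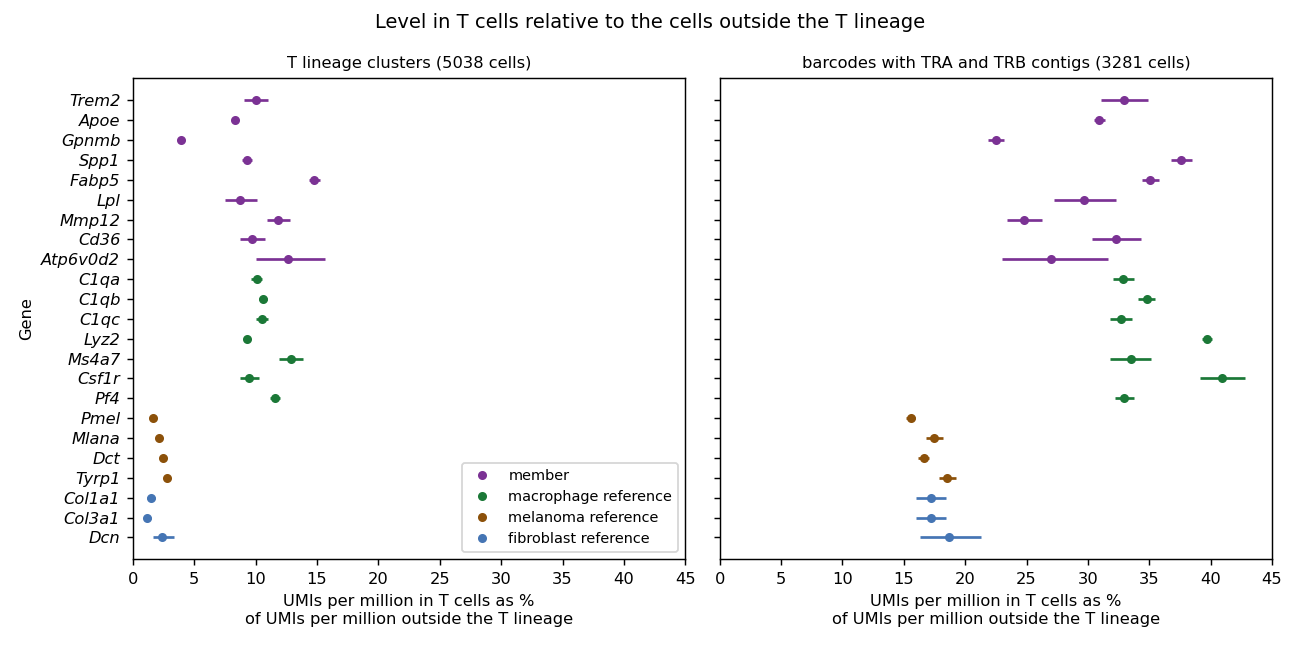
CPM in T cells of the Tc1 library as a percent of the CPM in cells outside the T lineage (left, T cells as T lineage clusters; right, barcodes with paired contigs), for the 9 genes and the macrophage, melanoma and fibroblast reference genes, with counting intervals (95%). On the left Fabp5 (14.8%) lies above the macrophage references (9.30% to 12.9%), and Gpnmb (3.89%) lies between the melanoma and the macrophage references.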

How the data were processed

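The authors deposited filtered matrices of UMI counts per gene and barcode, made with Cell Ranger 7.0.0 against mm10 (GRCm38), per the submitters' processing notes, and TCR contig tables, of which the presence of contigs was used. Columns of other samples: 0. Barcodes of the Tc1 matrix were clustered in scanpy 1.11.5 (2000 variable genes without the 9 members, 30 components, 15 neighbours, leidenalg 0.10.2, resolution 1). T lineage needed a Cd3 UMI in 60% of a cluster's cells and macrophage markers at or under 1000 CPM, and other names 3 markers in 10% of cells at 2-fold. These limits were set with the data in hand, and all members, lists and rules were chosen with earlier results of these data known. No doublet caller was used, and clusters with T cell and macrophage RNA were kept as a class of their own.

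CPM were the UMIs of a gene per 1e6 UMIs of a class, with exact Poisson intervals; shares have Clopper-Pearson intervals and ratios exact conditional ones. Genes needed 10 CPM in either set, and 50 CPM to be named as the 10 highest or 5 lowest. Cells were thinned to 2000 UMIs with seed 7. The scripts were tested on simulated data. Alternatives were other filters, resolutions, depths, folds, scalings (TMM by edgeR 4.0.16, median ratio) and class definitions. Values of some genes on the lists are not reported here. SciPy 1.17.1, pandas 2.3.3 and matplotlib 3.10.9 were used.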

Additional observations from a re-analysis of the deposited data

How the results depend on the processing

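No paired analysis was possible because each group is 1 RNA library with no replicate. The counts of the 9 genes higher in macrophages and of pairs found together kept within 1.5 times of the values given under all alternatives run; pairs above 1 ran from 33 to 36. With cluster 4 as the only macrophages (added after seeing the data) 5 genes were higher than in monocytes, 7 than in dendritic cells, 7 than in melanoma cells and 6 than in stromal cells. The number of genes higher in macrophages with many members, 722, moved to 368 at 2-fold, 1856 with TMM, 2301 with median ratio scaling, 1487 with no minimum level other than 3 UMIs and 322 at 50 CPM, and, in alternatives added after seeing the data, to 1088 within cluster 2 and 3641 within cluster 4. The number of the 9 genes above the highest reference gene in T cells, 0, became 1 without TCR-contig barcodes outside the T lineage, 1 with T cells taken as T lineage clusters and 1 with CD4 T cells only. It was 2 where a contig and a T lineage cluster were both required (a value given in the report). Reversed log2 ratios were Spp1 over monocytes at most 5% mitochondrial UMIs (0.49), a setting that named the cluster led by Inhba and Mmp13 macrophage-like, and, with macrophages as cluster 4 only (added), Mmp12 over monocytes (-0.055) and dendritic cells (-0.46), and Fabp5 over dendritic (-0.66), melanoma (-0.47) and stromal cells (-0.41). Of the alternative values for single genes 435 stayed within 1.5-fold of the main ratio, 144 moved further and 6 were reversed. A change of sign was counted as reversed only where the main ratio was at least 1.5-fold. Depth limits Atp6v0d2 in neutrophils (30 UMIs) and genes near 10 CPM, which have about 7.86 UMIs in the cells with many members.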

Other observations

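Cells gated for C1q UMIs and no Cd3 UMI were rare in the Tc9 library, where 27 cells (median 1841 UMIs) met the same gate as 1715 cells (median 4792 UMIs) of the Tc1 library. Of the 27, 26 held an Apoe UMI, 12 Fabp5, 9 Trem2, 5 Atp6v0d2, 4 Cd36, 3 Lpl, 2 Spp1, 2 Mmp12 and 1 Gpnmb, and 26 held C1qa. The 1715 Tc1 cells held Apoe in 93.3% and Trem2 in 66.6%. The depths differ and each group is 1 library, so the shares are given side by side only.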
